A study of Homo sapiens with 45 samples.

Results

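CCN1 and 9 further genes of YAP-TEAD signalling were followed in HCT116 cells after HNRNPK siRNA: the targets CCN1, CCN2 and ANKRD1, the upstream regulators AMOTL2, AJUBA and LATS2, the coactivators YAP1 and WWTR1, and the DNA-binding partners TEAD1 and TEAD4. HCT116 is an established human colon cancer line. The 10 genes were found by symbol among the 28278 gene names of the deposited count table, and in the separate tables of the Scramble libraries CCN1 was listed as CYR61 and CCN2 as CTGF. They were selected on knockdown and library-kit values of these same libraries, so their values in the knockdown and kit comparisons are given as a description, with no test.

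All RNA samples came from cells reverse-transfected with siRNA at 25 nM using a lipid reagent and collected after 72 h. The groups were the nontargeting siRNA called siNTC5 (4 libraries), HNRNPK siRNA (4 libraries) and a further nontargeting control called Scramble (2 libraries). Replicates 1 and 2 of siNTC5 and of HNRNPK siRNA, and both Scramble libraries, were made with the Illumina TruSeq stranded mRNA kit, and replicates 3 and 4 with the Illumina Stranded mRNA Ligation kit. RNA for the Scramble libraries was purified with a different kit from that used for the other 8. The series also holds 35 chromatin libraries, from cells with control siRNA or HNRNPK siRNA, likewise at 25 nM and 72 h. Lamin B1 and H3K9me3 had 3 libraries per siRNA and H3K27me3 had 2. H3K9me2 had 3 with control siRNA and none with HNRNPK siRNA, and the rest were inputs. From these libraries, 7 domain lists for lamin B1 and histone H3 marks were deposited. All values describe 1 cell line and pools of its cells.

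The Hippo pathway is a kinase cascade in which LATS kinases phosphorylate the coactivators YAP1 and WWTR1 (also called TAZ) and keep them out of the nucleus. Unphosphorylated YAP1 and WWTR1 bind TEAD factors and raise transcription of targets that include the secreted matricellular proteins CCN1 and CCN2 and the ankyrin-repeat protein ANKRD1. AMOTL2 and LATS2 are themselves known targets that restrain YAP1, and AJUBA is a LIM protein that inhibits LATS kinases. CCN1 is also an immediate early gene, induced quickly by serum and stress. HNRNPK is a poly(C)-binding RNA-binding protein. The pathway is regulated largely through protein phosphorylation and location, which RNA levels do not measure.

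Library totals ran from 12107280 to 23633851 counts in the 8 siNTC5 and HNRNPK siRNA libraries, against 59209169 and 55007171 in the Scramble libraries. Levels are given as CPM, the count of a gene relative to its library total after scaling by TMM factors. HNRNPK itself had 884 ± 78.0 CPM (SD, n = 4) in siNTC5 and 198.5 ± 45.3 CPM (SD, n = 4) with its siRNA, which left 22.5% of the control level. Of 13933 genes tested for knockdown, 71.5% passed an adjusted p of 0.05, with 35.5% higher and 36.1% lower, and the levels of the groups did not overlap for 56.5%. All 8 epithelial markers were tested, and their summed level was 2970 to 3459 CPM in siNTC5 and 4691 to 5806 CPM after knockdown. Fibroblast markers, of which 2 of 6 were tested, summed to 44.6 to 73.3 CPM and 75.4 to 122.5 CPM, with LUM at 0 in all 8 libraries. Leukocyte markers summed to at most 1.69 CPM in any library with CD3E at 0, and endothelial markers to at most 3.69 CPM. The part of these marker shifts in the values below was not tested. In bulk libraries a change in the share of some cells and a change in RNA per cell cannot be told apart. Nothing in the labels says that replicates were separate cultures, so p-values measure the spread between these libraries, which may be technical.

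Of the 10 genes, 9 had enough counts for a fitted fold change. The groups did not overlap for 9 of the 10, 8 with higher and 1 with lower levels after knockdown, where 56.5% of all tested genes had groups that did not overlap. Those 9 include ANKRD1, which had too few counts to be among the tested genes. The genes were chosen with this contrast known, so nothing is read from that count. Beside them, all 13933 tested genes had a median log2 change of -0.004, with 7.47% at 1 or above and 8.29% at -1 or below. With all 8 libraries fitted together, the genes fell into an order by size of change that ran from CCN2 at the top through CCN1, AJUBA, AMOTL2, LATS2, YAP1 and TEAD1 to TEAD4 near 0, with WWTR1 alone below 0. In that order the intervals of 1 SE around AJUBA and AMOTL2 overlapped, and those of every other pair of neighbours did not. The place of CCN1 did not hold in both kits: within TruSeq its log2 fold change of 1.24 ± 0.10 (SE) was level with 1.24 ± 0.08 (SE) for AMOTL2 and 1.23 ± 0.08 (SE) for AJUBA. These are comparisons of log2 differences, since levels of different genes were not scaled by transcript length.

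**Figure D1:**
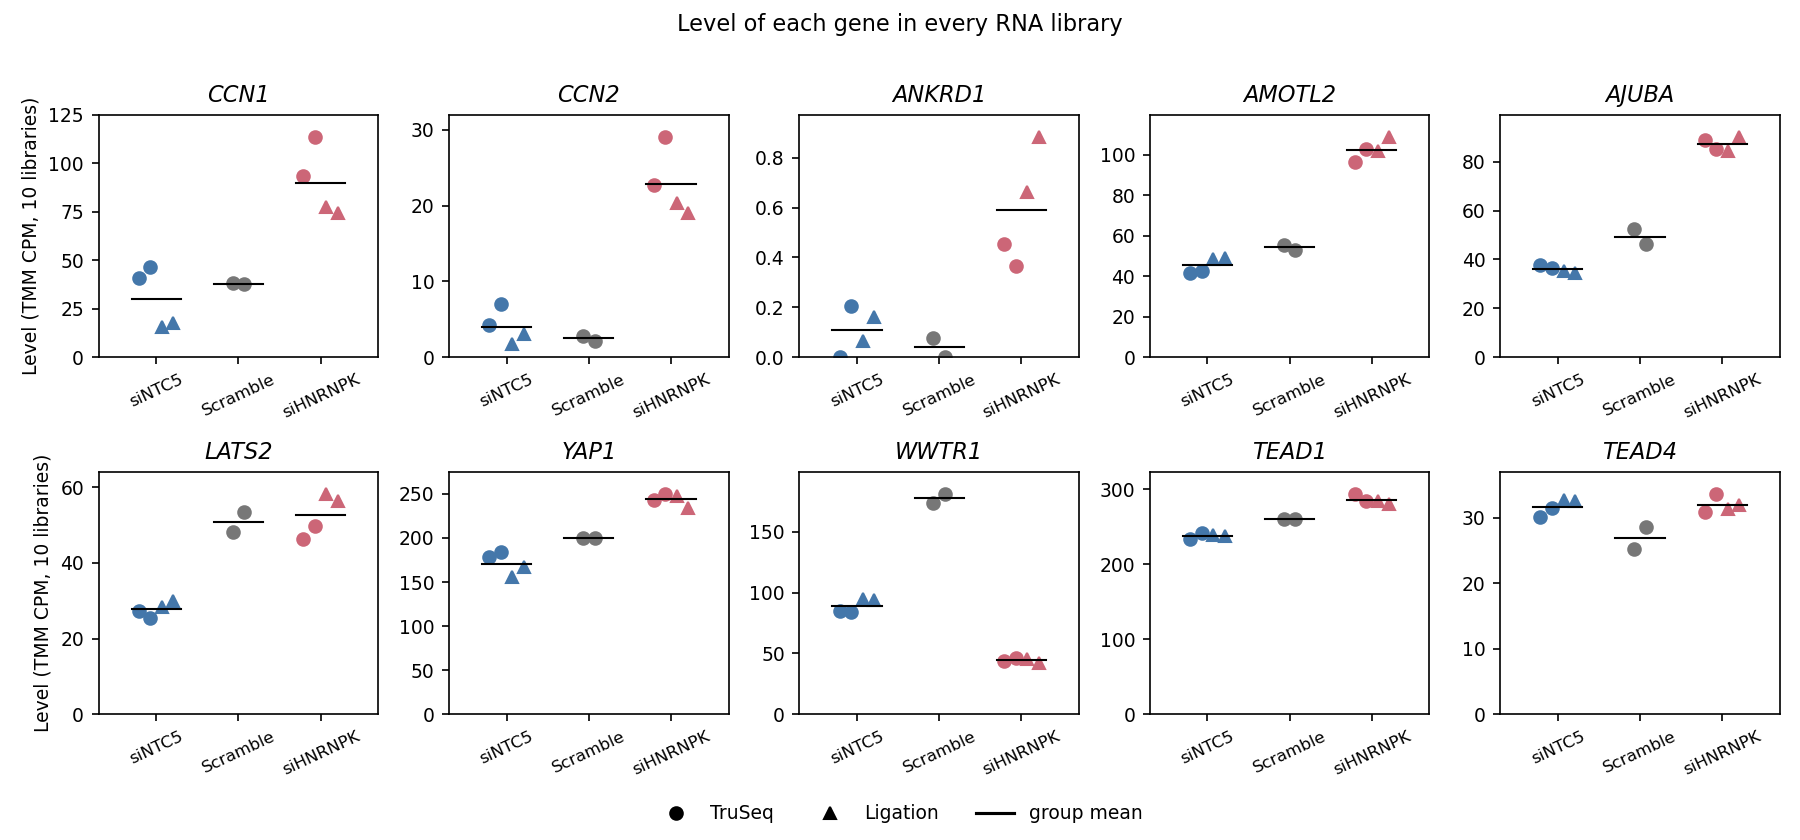
Level of each of the 10 genes (vertical axis, TMM-scaled CPM over all 10 libraries, starting at 0) in siNTC5, Scramble and HNRNPK siRNA libraries. Each point is a library, circles TruSeq and triangles Ligation, and bars are group means. CCN1 was 93.7 and 113.8 CPM in TruSeq knockdown libraries against 40.7 and 46.6 in TruSeq siNTC5, and WWTR1 was lowest in knockdown and highest in Scramble.

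CCN1 encodes a secreted matricellular protein that binds integrins. Its level in siNTC5 was 41.8 and 47.7 CPM in the TruSeq libraries and 16.1 and 18.2 CPM in the Ligation libraries. With HNRNPK siRNA it was 95.2 and 115.3 CPM in TruSeq and 79.1 and 76.1 CPM in Ligation. Every knockdown library lay above every control library, and within each treatment both TruSeq libraries lay above both Ligation libraries. The log2 fold change was 1.64 ± 0.13 (SE, 4 against 4 libraries), or 3.11-fold.

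CCN2 encodes the closest relative of CCN1 among matricellular proteins, known for its part in fibrosis. Its control libraries held 4.39 and 7.14 CPM in TruSeq and 1.80 and 3.07 CPM in Ligation. In knockdown it reached 23.1 and 29.5 CPM in TruSeq and 20.6 and 19.5 CPM in Ligation. The groups did not overlap, and the kits stood in the same order as for CCN1. The log2 fold change was 2.48 ± 0.17 (SE), or 5.59-fold.

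ANKRD1, a nuclear ankyrin-repeat protein of striated muscle and a standard readout of YAP activity, was nearly absent. The siNTC5 libraries held 0, 5, 1 and 3 counts and the HNRNPK siRNA libraries 7, 5, 8 and 11, in all 9 and 31. It did not pass the filter on low counts and has no fitted fold change. Its levels scaled for depth did not overlap, at 0 to 0.209 CPM in controls and 0.371 to 0.907 CPM in knockdown. Counts this small limit the precision of any ratio.

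The sequences just before the RefSeq start sites of CCN2, ANKRD1 and YAP1 are shown because they hold the core of the TEAD motif, GGAATG, searched on both strands, in the genes whose level is the usual readout of the pathway and in the coactivator. Each is 250 bases of GRCh38.p14, read 5′ to 3′ on the strand of the gene, ending at the base before the start, with motif matches in capitals. The CCN2 window is chr6:131951373-131951622 on the minus strand, the ANKRD1 window chr10:90921088-90921337 on the minus strand, and the YAP1 window chr11:102110197-102110446 on the plus strand.
CCN2: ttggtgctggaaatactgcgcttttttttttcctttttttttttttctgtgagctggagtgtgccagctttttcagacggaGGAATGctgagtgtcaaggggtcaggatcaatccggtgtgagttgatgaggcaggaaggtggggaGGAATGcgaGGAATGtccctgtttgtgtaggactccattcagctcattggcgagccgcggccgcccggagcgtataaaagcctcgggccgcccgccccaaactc
ANKRD1: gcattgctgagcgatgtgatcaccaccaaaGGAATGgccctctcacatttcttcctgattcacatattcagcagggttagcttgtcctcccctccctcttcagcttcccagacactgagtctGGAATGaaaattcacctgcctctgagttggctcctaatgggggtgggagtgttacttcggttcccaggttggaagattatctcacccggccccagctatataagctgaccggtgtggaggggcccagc
YAP1: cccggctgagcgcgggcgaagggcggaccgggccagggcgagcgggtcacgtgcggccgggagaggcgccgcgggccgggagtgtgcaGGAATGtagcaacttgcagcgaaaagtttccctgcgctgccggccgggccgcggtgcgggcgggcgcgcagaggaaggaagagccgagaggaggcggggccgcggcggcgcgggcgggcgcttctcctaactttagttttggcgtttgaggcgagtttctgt

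CCN2 held 3 matches, beginning 169, 104 and 95 bases before the start, and ANKRD1 held 2, at 220 and 128 bases. YAP1 held 1, at 162 bases. Among 35116 promoter windows of the same length, 11.9% held at least 1 match, 0.94% at least 2 and 0.0826% at least 3. The RefSeq promoter table had 10 starts for 7 of the genes, and CCN1, TEAD1 and TEAD4 were not in it. At the outermost start, AMOTL2, AJUBA and LATS2 held no match. A second, inner start of AMOTL2 and an inner start of AJUBA held 1 match each, and neither of the starts given for WWTR1 held any. Over the 6 genes with an entry at their outermost start, none held the AP-1 motif TGAGTCA, the cAMP response element TGACGTCA or a CArG box, which stood in 4.2%, 1.65% and 1.16% of all windows. The exact string TATAAA, searched as the TATA box, stood in CCN2 alone of the 6, at 32 bases, and in 10.7% of all windows. Other spellings were not searched, such as the TATATAAG in the ANKRD1 window. A match is a run of letters, not evidence of binding.

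The upstream regulators had higher levels in every knockdown library of both kits. AMOTL2, an angiomotin that holds YAP1 at cell junctions, had 42.6, 43.7, 49.2 and 49.6 CPM in siNTC5 and 98.02, 104.4, 103.5 and 111.6 CPM after knockdown. The lowest knockdown library lay far above the highest control, and the log2 fold change was 1.18 ± 0.05 (SE). AJUBA, the LIM adaptor, had 38.6, 37.2, 35.8 and 35.3 CPM in siNTC5 and 90.4, 86.5, 86.0 and 92.5 CPM in knockdown. The groups lay far apart beside their SDs of 1.49 and 3.13 CPM, and the log2 fold change was 1.27 ± 0.05 (SE). LATS2, the kinase that phosphorylates YAP1 and WWTR1, had 28.1, 25.9, 28.7 and 30.5 CPM in siNTC5 and 47.1, 50.3, 59.3 and 57.9 CPM in knockdown. Its log2 fold change was 0.92 ± 0.06 (SE), and the groups did not overlap. With the Scramble libraries added as controls it was 0.60.

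The coactivators moved in opposite directions. YAP1 had 182.9, 188.1, 157.9 and 170.1 CPM in siNTC5 and 247.2, 253.6, 252.3 and 239.7 CPM after knockdown, a log2 fold change of 0.51 ± 0.05 (SE). WWTR1 had 87.2, 86.3, 96.3 and 95.3 CPM in siNTC5 and 44.4, 47.2, 46.5 and 43.1 CPM in knockdown. Every knockdown library of WWTR1 lay below every control, at 49.6% of the control mean, and its log2 fold change was -1.01 ± 0.06 (SE). The groups of YAP1 did not overlap either.

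Among the DNA-binding partners, TEAD1 had 240.2, 248.2, 243.0 and 241.6 CPM in siNTC5 and 299.3, 288.9, 289.4 and 287.1 CPM in knockdown. This was a small difference between tight groups, with a log2 fold change of 0.26 ± 0.04 (SE). TEAD4 had 30.9, 32.2, 33.3 and 33.1 CPM in siNTC5 and 31.4, 34.1, 31.9 and 32.7 CPM in knockdown. The TEAD4 groups overlapped, and its log2 fold change was 0.01 ± 0.07 (SE).

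**Figure D2:**
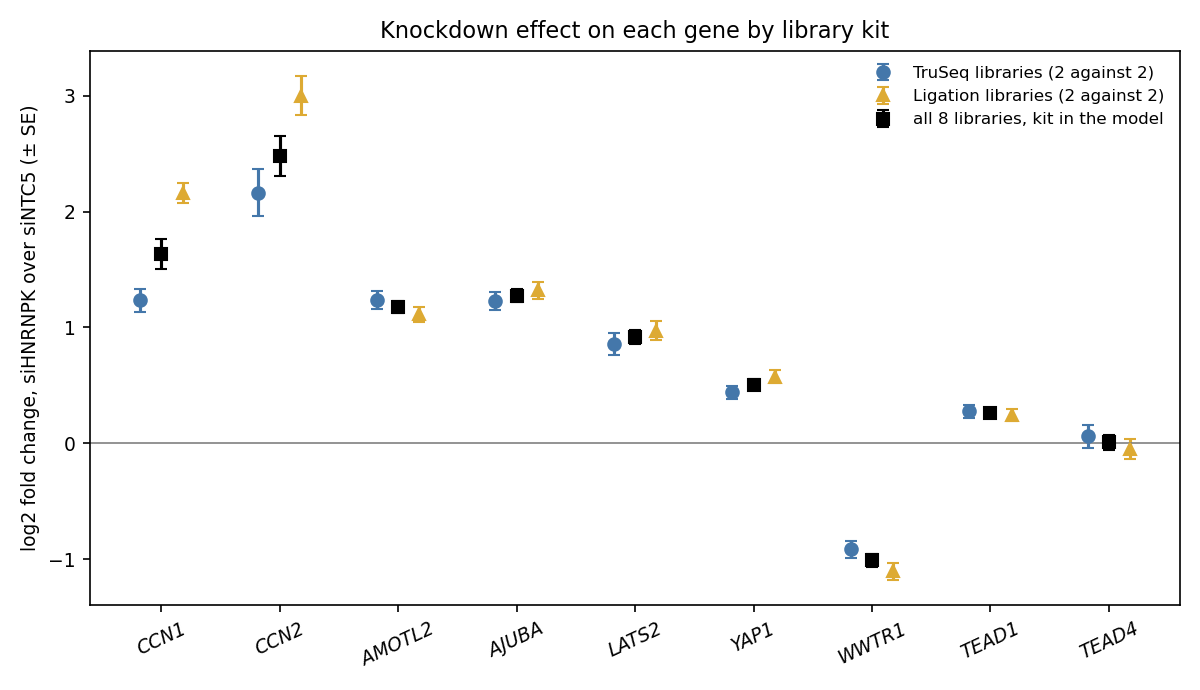
Log2 fold change of HNRNPK siRNA over siNTC5 (vertical axis, ± SE) for the 9 genes with enough counts, in TruSeq libraries (2 against 2), in Ligation libraries (2 against 2) and in all 8. CCN1 went from 1.24 in TruSeq to 2.16 in Ligation and CCN2 from 2.16 to 3.00. For the other 7 genes Ligation minus TruSeq, from a separate fit of all 8 libraries that is not drawn, ran from -0.18 for WWTR1 to 0.15 for YAP1.

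The CCN1 and CCN2 differences were larger in the Ligation libraries, and the kits stood farther apart in controls than in knockdown. For CCN1 the log2 fold change was 1.24 ± 0.10 (SE) within TruSeq and 2.16 ± 0.08 (SE) within Ligation. The difference between kits, from a separate fit of all 8 libraries, was 0.94 ± 0.14 (SE). In controls the mean CCN1 level was 2.61 times as high in TruSeq as in Ligation, against 1.36 times in knockdown. CCN2 had log2 fold changes of 2.16 ± 0.20 (SE) and 3.00 ± 0.17 (SE), and a difference of 0.86 ± 0.32 (SE) in the fit of all 8. Its control level was 2.37 times as high in TruSeq. Over the other 7 genes the control ratio of TruSeq to Ligation ran from 0.873 for AMOTL2 to 1.13 for YAP1. The depth of knockdown also differed with kit. HNRNPK in knockdown stood at 0.249 of its control mean in TruSeq and 0.196 in Ligation. Its Ligation minus TruSeq difference was -0.34 ± 0.08 (SE) on the log2 scale in the fit of all 8. The part of knockdown depth in the CCN1 and CCN2 values was not tested. Kit, library round and any difference in handling of the cells between rounds cannot be told apart.

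Across all genes with a mean of at least 5 CPM, 8 of 10757 (0.0744%) were at least 2-fold higher in TruSeq than in Ligation controls, and CCN1 and CCN2 were among them. The others were FOSB, FOS and NR4A1, which are immediate early transcription factors, the small nucleolar RNAs SNORA8 and SNORA70, and the keratin gene KRT80, and these were named after their values were seen. FOS had 164.5 and 178.7 CPM in TruSeq controls and 44.2 and 47.6 CPM in Ligation controls. FOSB had 53.1 and 70.4 CPM against 8.86 and 9.91 CPM, and NR4A1 75.3 and 90.4 CPM against 36.0 and 34.8 CPM. After knockdown the TruSeq to Ligation ratio was 2.56 for FOS, 0.847 for NR4A1 and close to 1 for FOSB. Not every immediate early gene had this order: ATF3 had 18.1 and 22.4 CPM in TruSeq controls against 30.2 and 25.0 CPM in Ligation controls. The part of these genes in the CCN1 values was not tested.

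**Figure D3:**
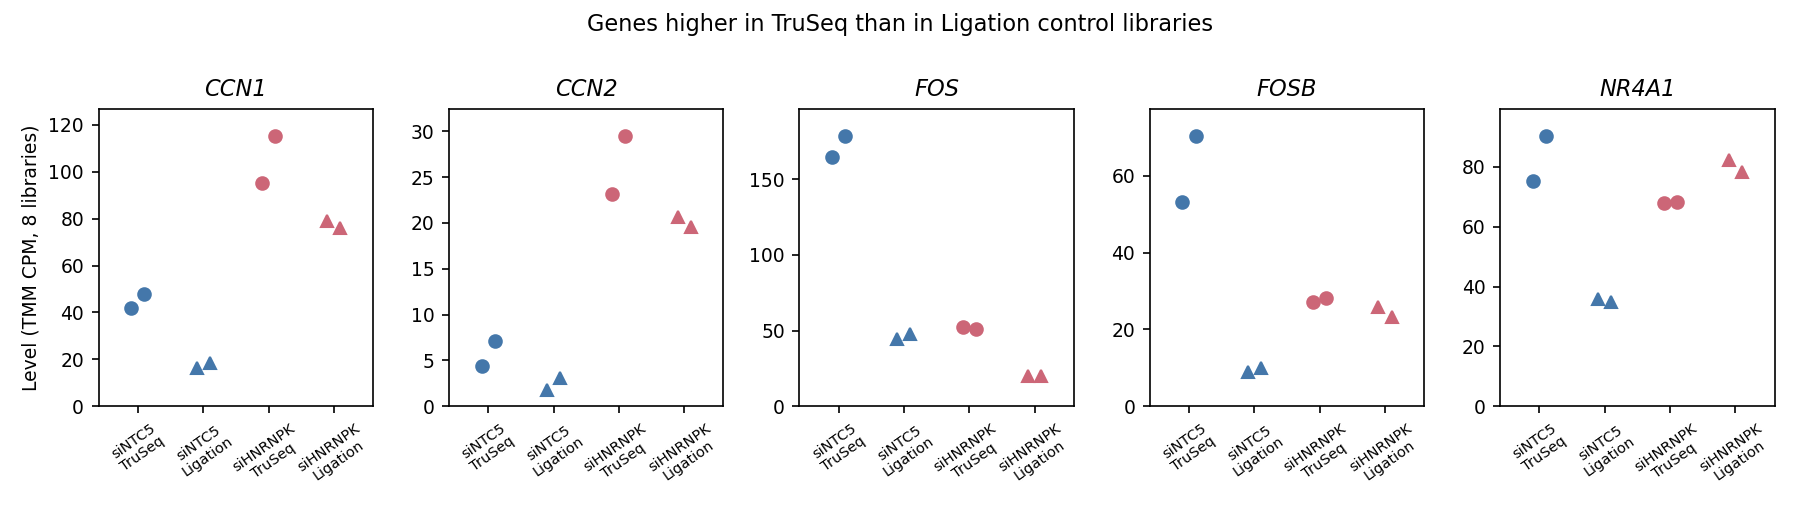
Level (TMM-scaled CPM over 8 libraries, axes from 0) of CCN1, CCN2, FOS, FOSB and NR4A1 by siRNA and kit, each point a library. In siNTC5 both TruSeq libraries lie above both Ligation libraries for all 5 genes, by 2.34 times for NR4A1 and 6.57 times for FOSB.

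A test of the kit by treatment interaction over all genes (edgeR quasi-likelihood test, Benjamini-Hochberg adjustment) called 18 genes, 0.129% of 13933. Of the 77 tested genes in 5 lists around the pathway, described next, 3 were among them, all in the list of immediate early and AP-1 genes. The lists were chosen with earlier results of these data known, so nothing is read from this count or from the called shares below. The interaction, as Ligation minus TruSeq on the log2 scale, was 2.55 ± 0.19 (SE) for FOSB with an edgeR adjusted p of 6.94e-07. For NR4A1 it was 1.47 ± 0.12 (SE, edgeR adjusted p = 2.12e-06) and for JUN 1.17 ± 0.17 (SE, edgeR adjusted p = 0.0039). CCN1 was chosen with its kit values known, and its difference between kits stands above as a description. FOSB and NR4A1 were named after their values were seen.

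The wider set of YAP-TEAD targets was split in direction. Of 17 further targets 14 were tested, and 12 of these (85.7%) were called, where 6 rose and 6 fell. The median log2 fold change was -0.01. Over all genes 71.5% were called, and the median was -0.004. NUAK2, a kinase of the AMPK family, rose from 4.79 ± 0.43 to 16.4 ± 2.78 CPM (SD, n = 4 per group), for a log2 change of 1.77 ± 0.11 (SE, edgeR adjusted p = 6.30e-11). CCDC80, a secreted matrix protein, rose by 1.66 ± 0.25 on the log2 scale (SE, edgeR adjusted p = 1.09e-05) from 1.03 ± 0.22 CPM (SD, n = 4). NT5E, the ectonucleotidase CD73 that makes adenosine, fell from 142.1 ± 14.1 to 30.0 ± 1.82 CPM (SD, n = 4 per group), for a log2 change of -2.23 ± 0.06 (SE, edgeR adjusted p = 7.29e-15). IGFBP3, a carrier of insulin-like growth factors, had a log2 fold change of -1.72 ± 0.25 (SE, edgeR adjusted p = 4.91e-06), from 3.05 ± 0.31 CPM (SD, n = 4). FOXF2, TGFB2 and RBMS3 had too few counts to test.

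Hippo kinases, adaptors and cofactors outside the chosen genes were listed as 27, of which 26 were tested. Of these, 15 (57.7%) were called, below the 71.5% of all genes, and 11 did not pass. Among the called genes 9 rose and 6 fell, and the median of the tested genes was 0.05. VGLL3, a TEAD cofactor that competes with YAP1, rose from 0.446 ± 0.117 to 2.55 ± 0.81 CPM (SD over 4 libraries per group), at a log2 change of 2.51 ± 0.30 (SE, edgeR adjusted p = 4.46e-07). SAV1, the scaffold of the upstream kinases, rose from 65.9 ± 4.17 to 132.9 ± 4.95 CPM (SD, n = 4 per group), by 1.01 ± 0.05 on the log2 scale (SE, edgeR adjusted p = 7.46e-12). TEAD2 had a log2 fold change of -0.93 ± 0.07 (SE, edgeR adjusted p = 1.05e-09). MAP4K2, an upstream kinase, had -0.53 ± 0.05 (SE, edgeR adjusted p = 8.30e-08). Within the list, the members that rose and those that fell both included kinases and adaptors of the inhibitory arm.

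Among 20 immediate early and AP-1 genes, 19 were tested, 4 rose and 10 fell, and the median was -0.39. The 14 called are 73.7% of those tested, near the 71.5% of all genes, of which 35.5% were higher and 36.1% lower, and 9 were called with the Scramble libraries added as controls. ATF3, a stress-induced bZIP factor, rose from 23.9 ± 5.04 to 120.9 ± 15.6 CPM (SD over 4 libraries per group), at a log2 change of 2.34 ± 0.07 (SE, edgeR adjusted p = 7.29e-15). It was also higher in Scramble than in siNTC5, by 1.83 on the log2 scale (edgeR adjusted p = 1.01e-08). With the Scramble libraries added as controls the ATF3 change was 1.65 (edgeR adjusted p = 0.0134). JUN rose by 1.07 ± 0.16 on the log2 scale (SE, edgeR adjusted p = 8.14e-06), and its value with the Scramble libraries added as controls was 0.57 (edgeR adjusted p = 0.326), over alternatives from 6.78e-27 to 0.326. EGR1, a serum-induced zinc finger factor, fell from 239.9 ± 50.4 to 74.5 ± 13.2 CPM (SD, n = 4 per group), for a log2 change of -1.68 ± 0.05 (SE, edgeR adjusted p = 7.29e-15). EGR3 had -1.21 ± 0.22 (SE, edgeR adjusted p = 6.12e-05).

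SRF-MRTF and actin cytoskeleton genes, which respond to the state of the actin cytoskeleton, were called in 15 of 17 tested of 20 listed. This was 88.2%, beside 71.5% of all genes, with 6 higher, 9 lower and a median of -0.21. THBS1, a matricellular glycoprotein also known as a YAP target, rose from 13.0 ± 2.61 to 94.2 ± 5.20 CPM (SD, n = 4 per group), for a log2 change of 2.85 ± 0.10 (SE, edgeR adjusted p = 2.69e-14). TAGLN, an actin-bundling protein, rose by 0.92 ± 0.12 on the log2 scale (SE, edgeR adjusted p = 1.08e-06). MYL9, a myosin light chain, fell from 31.2 ± 1.83 to 5.26 ± 1.07 CPM (SD over 4 libraries per group), at a log2 change of -2.57 ± 0.11 (SE, edgeR adjusted p = 4.13e-13). ACTA2, smooth muscle actin, had -1.39 ± 0.28 (SE, edgeR adjusted p = 0.000218), and within the TruSeq libraries -0.54 (edgeR adjusted p = 0.143), over alternatives from 3.49e-11 to 0.143. Of the other CCN family genes, CCN4, CCN5 and CCN6 were not tested, and CCN3 had a log2 fold change of -0.06 ± 0.20 (SE, edgeR adjusted p = 0.811). Over all 5 lists 56 of 77 tested genes (72.7%) were called, 25 higher and 31 lower, near the 71.5% of all genes.

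**Figure D4:**
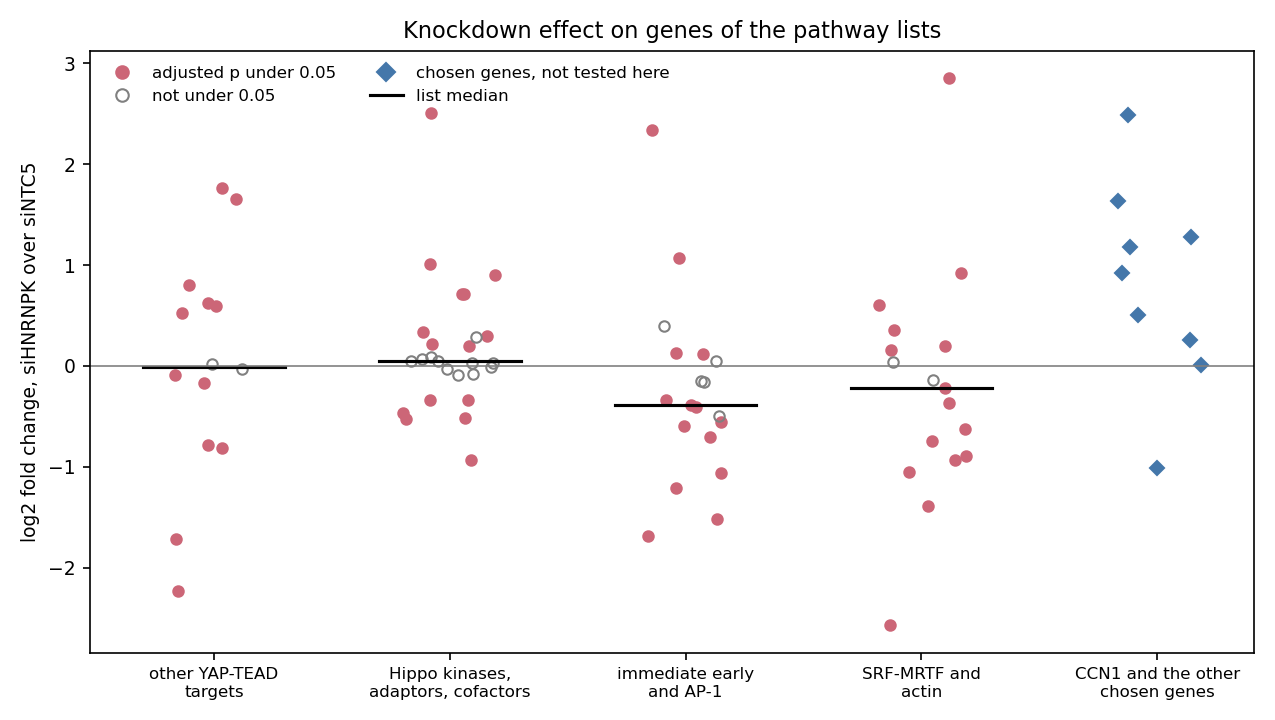
Log2 fold change of HNRNPK siRNA over siNTC5 (vertical axis) for each tested gene of 4 pathway lists and for the 9 chosen genes with enough counts. Filled circles passed an adjusted p of 0.05, open circles did not, and bars are list medians, which ran from -0.39 for immediate early genes to 0.05 for Hippo genes. The chosen genes, drawn as diamonds, are a description with no test.

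Pearson correlation of log2(TMM CPM + 1) over the 8 libraries, given as a description over libraries that share treatment and kit, ranked 10756 genes by likeness to CCN1. The closest were TWF1 (r = 0.997), an actin-monomer-binding twinfilin, CYB561 (r = 0.996), DKC1 (r = 0.995), the pseudouridine synthase of small nucleolar particles, NUP58 (r = 0.994), a nuclear pore protein, and ILF2 (r = 0.993). TWF1 had 205.2, 208.1, 169.2 and 176.3 CPM in siNTC5 and 246.3, 255.9, 233.3 and 237.7 CPM in knockdown, the same order of kits as CCN1 at a log2 fold change of 0.36 ± 0.04 (SE). All 5 changed less than CCN1, with log2 fold changes from 0.25 to 0.41. CCN2 ranked 193 at r = 0.969 and YAP1 407 at r = 0.953, and WWTR1 had r = -0.891.

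The choice of genes did not use the Scramble values, but it did use those of the siNTC5 libraries they are compared with. Both Scramble libraries are TruSeq, so with kit in the model the comparison rests on the TruSeq siNTC5 libraries. The adjusted p-values of the chosen genes below are therefore not independent of the choice. Scramble and siNTC5 are nontargeting siRNAs, and the comparison asks how far the genes differ between such controls. With kit in the model, 7 of the 9 tested genes passed, 4 higher and 3 lower in Scramble, where 68.5% of all 14672 genes tested passed. That share is close to the 7 of 9. RNA purification, depth, count table and siRNA differ together here and cannot be told apart. The count tables themselves differed for some genes: IER3 was at most 0.231 CPM in the 8 libraries and at least 688 CPM in Scramble, and ZYX was at most 0.115 CPM in the 8 libraries and 297 CPM in Scramble. These were singled out after their values were seen.

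CCN1 had 38.1 and 37.9 CPM in Scramble, beside 40.7 and 46.6 CPM in TruSeq siNTC5 and 15.8 and 17.9 CPM in Ligation siNTC5 (CPM over all 10 libraries). Its log2 difference of -0.26 ± 0.09 (SE) passed with an edgeR adjusted p of 0.0168. Without kit in the model it was 0.26 (edgeR adjusted p = 0.573), over alternatives whose adjusted p ran from 0.00153 to 0.573. The call was lost without Scramble replicate 1 (edgeR adjusted p = 0.0768), Scramble replicate 2 (0.0797) or siNTC5 replicate 2 (0.137). CCN2 had 2.83 and 2.2 CPM in Scramble and 4.27 and 6.97 CPM in TruSeq siNTC5, a log2 difference of -1.24 ± 0.26 (SE, edgeR adjusted p = 0.00107). Without kit in the model the CCN2 call was lost (edgeR adjusted p = 0.148), over alternatives from 2.81e-09 to 0.148. The CCN2 difference was -0.82 without siNTC5 replicate 2 and -1.51 without siNTC5 replicate 1. Every knockdown library lay above every Scramble library for CCN1 and CCN2, and TruSeq knockdown libraries were 2.73 and 10.3 times the Scramble level. ANKRD1 had 4 and 0 counts in Scramble.

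For LATS2 and WWTR1 the controls differed from each other by about as much as knockdown differed from siNTC5, in the same direction for LATS2 and the opposite one for WWTR1. LATS2 had 48.3 and 53.5 CPM in Scramble against 25.3 to 29.9 CPM in siNTC5, a log2 difference of 0.89 ± 0.09 (SE, edgeR adjusted p = 1.23e-06). The Scramble values overlapped the knockdown range of 46.3 to 58.3 CPM, and TruSeq knockdown stood at 0.943 of Scramble. LATS2 was higher than siNTC5 in both groups, and its knockdown and Scramble levels overlapped. WWTR1 had 174.2 and 181.6 CPM in Scramble against 84.3 to 94.6 CPM in siNTC5, a log2 difference of 1.01 ± 0.06 (SE, edgeR adjusted p = 7.89e-09). Its knockdown level lay below both controls, at 0.254 of Scramble in TruSeq.

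AMOTL2 and AJUBA differed less between the controls. AMOTL2 had 55.2 and 53.1 CPM in Scramble, a log2 difference of 0.30 ± 0.07 (SE, edgeR adjusted p = 0.00173), and AJUBA 52.3 and 46.5 CPM, or 0.36 ± 0.08 (SE, edgeR adjusted p = 0.00146). The AMOTL2 call was lost without kit in the model (edgeR adjusted p = 0.0636), over alternatives from 0.000141 to 0.0636. TruSeq knockdown was 1.84 and 1.76 times Scramble for these genes. YAP1 had 200.5 and 199.6 CPM in Scramble and a log2 difference of 0.09 ± 0.06 (SE, edgeR adjusted p = 0.193), and TEAD1 259.9 and 260.9 CPM and 0.07 ± 0.05 (SE, edgeR adjusted p = 0.249), which did not pass. TEAD4 had 25.1 and 28.6 CPM in Scramble and a log2 difference of -0.25 ± 0.09 (SE, edgeR adjusted p = 0.0205). That call was lost without siNTC5 replicate 2 (edgeR adjusted p = 0.0642) or with the TruSeq siNTC5 libraries only (0.0555). It was also lost by DESeq2's Wald test (adjusted p = 0.0734), while upper-quartile scaling gave an edgeR adjusted p of 0.0044. The TEAD4 difference was -0.16 without Scramble replicate 1 and -0.35 without Scramble replicate 2. Of the 10 genes, LATS2 was the only one whose Scramble values overlapped the knockdown values.

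The deposited domain lists were compared with the gene bodies in GRCh38 coordinates. AMOTL2 lies at chr3:134355345-134375417, AJUBA at chr14:22971177-22982551, LATS2 at chr13:20973036-21061586, YAP1 at chr11:102110447-102233424, TEAD4 at chr12:2959397-3040676 and ANKRD1 at chr10:90912096-90921087. There is 1 list per antibody and siRNA, so these are positions with no test. Lamin B1 marks chromatin at the nuclear periphery, H3K9me2 and H3K9me3 are histone marks of silent chromatin, and H3K27me3 is the mark of Polycomb repression. None of the 10 genes overlapped a lamin B1, H3K9me2 or H3K27me3 domain, nor a control H3K9me3 domain. Over 20037 protein-coding genes, 9.94% lay in control and 6.80% in knockdown lamin B1 domains by at least 50% of the gene body, and 7.24% and 10.9% in control and knockdown H3K9me3 domains. The share was 6.57% for control H3K9me2 and 20.4% and 18.6% for H3K27me3.

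CCN1 (chr1:85580761-85583950) was the only chosen gene in a domain. In the knockdown H3K9me3 list, 10.9% of all protein-coding genes lay in domains, so 1 of the chosen genes is near that share. Nothing is read from that count. The whole body of CCN1 lay in an H3K9me3 domain of the knockdown list, chr1:85535001-85830000, which is 295.0 kb long. The control list had 0 bases there. The nearest control H3K9me3 domain was 945.8 kb from the gene. The authors' score of this domain was 0.583, above 28.5% of the 1996 domains of its list, and among domains in the upper part of the scores no chosen gene was covered. Other tested genes that touch the domain also had higher RNA after knockdown, where 35.5% of all tested genes were called higher. ZNHIT6, wholly inside, had a log2 fold change of 0.76 ± 0.06 (SE, edgeR adjusted p = 4.27e-09). DDAH1, with 16.6% of its body inside, had 0.25 ± 0.06 (SE, edgeR adjusted p = 0.000717), and COL24A1, with 23.6% inside, 2.46 ± 0.34 (SE, edgeR adjusted p = 3.73e-06). Both fall short of the 50% needed to count as in a domain, so nothing is read from these genes. CCN1 thus was listed in a domain of a repressive mark in the cells where its RNA was higher. The call was not checked against signal, and ZNHIT6, DDAH1 and COL24A1 were named because they touch the domain.

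All 10 genes were nearer to an H3K9me3 domain in the knockdown list than in the control list, with a median distance of 206 kb against 1650 kb. Protein-coding genes outside domains had medians of 411 kb and 1032 kb, and the knockdown list holds 1996 domains against 895. Those medians leave out every gene that touches a domain, whereas the median of the 10 genes keeps CCN1 at 0 kb. The share of all genes that were nearer in the knockdown list was not counted, so nothing is read from the 10. TEAD1 (chr11:12674421-12944737) was 14.4 kb from a knockdown H3K9me3 domain and 570 kb from a control one, and WWTR1 (chr3:149517235-149724788) 70.2 kb and 2285 kb. CCN2 (chr6:131948176-131951372) was 119 kb and 1149 kb away. For lamin B1, 9 genes were farther from a domain after knockdown and 1, TEAD4, was nearer, at 154 kb against 1019 kb. Protein-coding genes outside lamin B1 domains also had a larger median distance after knockdown, 1655 kb against 1272 kb, and that list had 730 domains against 880. For H3K27me3 the distances of each gene in the lists were close, such as 72.5 kb and 67.5 kb for AJUBA, where domain edges fall on steps of 5 kb. ANKRD1 was nearer to H3K9me3 by 1 such step only, at 222 kb against 227 kb.

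**Figure D5:**
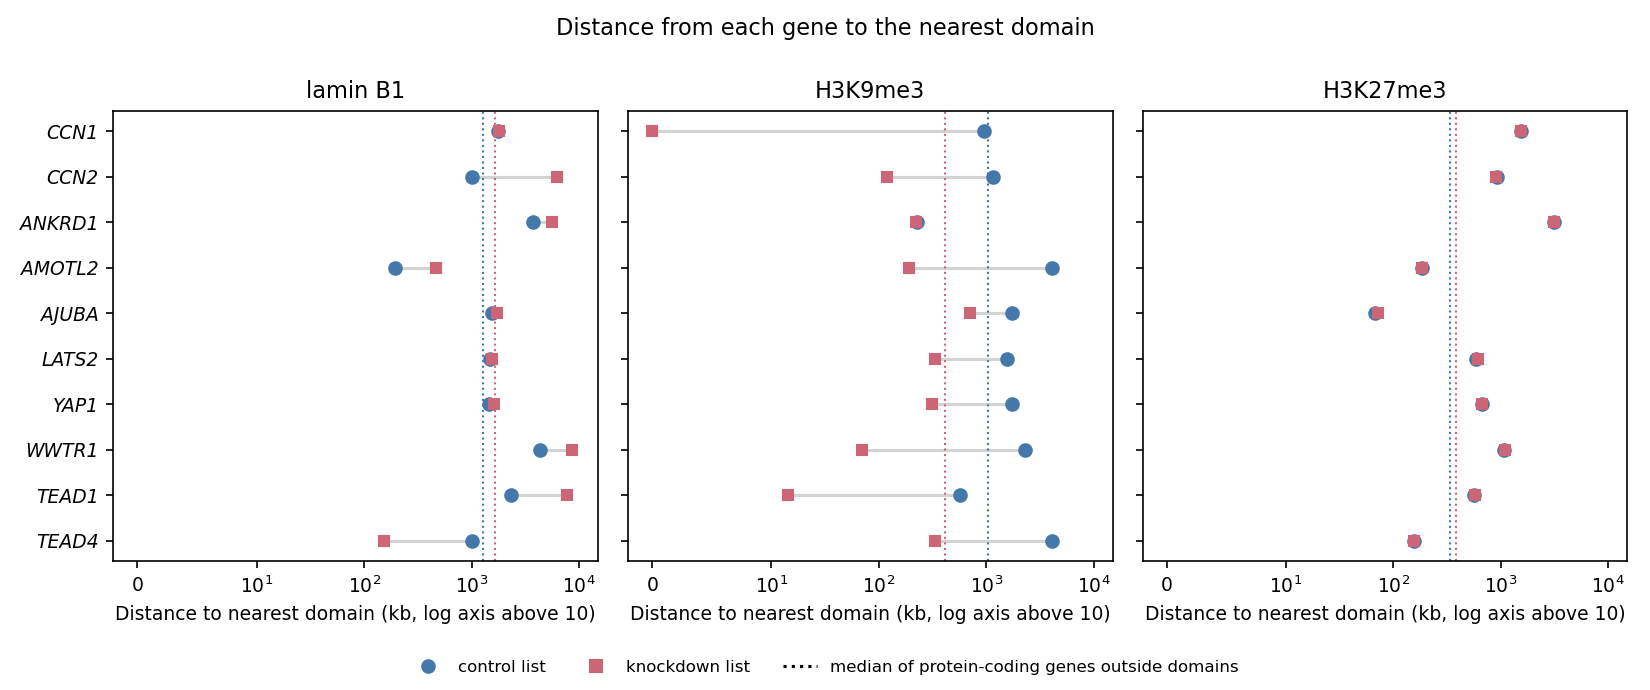
Distance from each of the 10 genes to the nearest lamin B1, H3K9me3 or H3K27me3 domain (horizontal axis in kb, logarithmic above 10) in the control list (circles) and the knockdown list (squares). Dotted lines are medians of protein-coding genes outside domains, and all 10 squares lie left of their circles for H3K9me3, with CCN1 at 0.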

How the data were processed

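The members and lists were chosen with earlier results of these data known. The deposited RNA tables hold raw counts per gene that the authors made with STAR 2.7.1a and featureCounts, with Subread 2.0.6 for the table of 8 libraries, per the submitters' processing notes, which name hg19 and hg38 for the Scramble tables. The deposited domain lists (hg38 in those notes) give each domain a score by the authors and a length. Their caller, and the annotation and strand setting of the counts, are not given in the sources used here.

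Genes were kept with filterByExpr, scaled by TMM and tested with edgeR 4.0.16 quasi-likelihood fits with kit and treatment, with Benjamini-Hochberg adjustment over all genes and a threshold of 0.05. A standard error is the log2 fold change divided by the square root of F. Scramble tables were joined by 25527 shared names and 736 older symbols. For the knockdown comparison, tests on simulated data recovered 189 of 196 genes changed 2-fold, with 8 false calls in 13760 genes. That simulation changed few genes and gave all genes the same dispersion, whereas 71.5% of genes were called in the real libraries. It therefore does not measure false calls in the real data. Same-numbered libraries deviated together (r = 0.100, 0.425, 0.336 and 0.265), as kits follow the numbers, and with kit removed r was -0.281 to -0.156. Removing group and kit from 8 libraries makes r negative by itself, so these values cannot show whether libraries were paired. No pair of libraries matched within sampling noise (chi-square per degree of freedom 2.24 to 8.34). Named genes were all 10 members, HNRNPK, the 2 largest rises and falls in each list whose groups do not overlap, and the 5 most like CCN1. Other genes were named for their place (in the CCN1 domain or family) or after their values were seen. A gene was in a domain when at least 50% of its body was covered. Promoter sequence came from RefSeq, and positions from RefSeq on GRCh38.p14. DESeq2 1.42.0 was an alternative.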

Additional observations from a re-analysis of the deposited data

Results flagged for a closer look

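The values of 3 genes stood out because the effect of HNRNPK siRNA differed between the TruSeq and Ligation libraries by the interaction test over all genes. The difference, as Ligation minus TruSeq on the log2 scale, was 2.55 for FOSB, 1.47 for NR4A1 and 1.17 for JUN. For CCN1, chosen with its kit values known, the same difference was 0.94, a description with no test. JUN had 18.5 and 18.1 CPM in TruSeq knockdown libraries and 36.3 and 32.9 CPM in Ligation knockdown libraries, and 13.3, 12.8, 11.9 and 10.1 CPM in siNTC5, so its kit difference lay in the knockdown libraries and that of CCN1, FOSB and NR4A1 mainly in the controls. Kit and round cannot be told apart. None of the 20 groups of 4 member values held a library far from the other 3 by Dixon's test. Each group mixed both kits, so for genes with a gap between kits the test could hardly single out a library.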

How the results depend on the processing

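When a change of 1 or more on the log2 scale in either direction was also required, called genes fell from 56 to 16 over the lists, from 12 to 4 for YAP-TEAD targets, from 15 to 2 for Hippo genes, from 14 to 6 for immediate early genes and from 15 to 4 for SRF-MRTF genes. With the Scramble libraries added as controls, 9 immediate early genes were called. Leaving out 1 library gave 53 to 57 calls. With the replicate number as a block in place of kit, 55 genes were called and the CCN1 log2 fold change was 1.64, and the block moved no count of calls by over 1.5 times. CCN1 in the knockdown comparison ran from 1.24 to 2.16 over 18 alternatives, and with a library left out from 1.51 to 1.79.

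CCN1 in Scramble against siNTC5 had -0.24 by DESeq2's Wald test (adjusted p = 0.0573), 0.26 without a kit term, and -0.34 to -0.16 with a library left out. TEAD1 had -0.0083 there with upper-quartile scaling. The interaction called 3 list genes, 6 by DESeq2's Wald test and 12 with no filter on low counts. In domains, 1 gene became 0 for the upper scores and 0 by gene start, which was known for 6 genes and not for CCN1. The cause of these shifts was not tested. Depth limits ANKRD1, CCN2 in controls and VGLL3.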
